A study of Arabidopsis thaliana with 18 samples.

Results

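The 35 aquaporin genes of Arabidopsis thaliana, which encode the membrane channels known as major intrinsic proteins, were followed in RNA-seq libraries of whole seeds. They were matched by locus among the 33602 transcript models that the deposited tables count, and all 35 were found: 13 PIP, 10 TIP, 9 NIP and 3 SIP genes. Gene names are written here with a hyphen (PIP2-7 for what is also written PIP2;7). The study compared wild type with seeds labelled as mpk8 mutant and tcp14 mutant, each either dry and untreated or dormant and imbibed with water for 24 h on filter paper in the dark at 25 °C. Each of these 6 groups has 3 libraries, called biological replicates in the design text, and no allele, line number or parental strain was given in the labels. The growth temperature was 21 °C for every library. MPK8 is a mitogen-activated protein kinase and TCP14 a TCP-family transcription factor, and the series title places them in the release of seed dormancy.

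Aquaporins let water and small uncharged solutes cross membranes. The plasma membrane intrinsic proteins (PIPs) fall into a PIP1 and a PIP2 group, of which PIP2 proteins form efficient water channels alone and PIP1 proteins largely work in complexes with them, as shown best in maize. The tonoplast intrinsic proteins (TIPs) sit in vacuole membranes, and TIP3 proteins are the forms of the protein storage vacuole of seeds. The NOD26-like intrinsic proteins (NIPs) include channels for boric acid and for arsenite, and the small basic intrinsic proteins (SIPs) sit in the endoplasmic reticulum.

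The TIP3 genes are the members that the results turn on, so the 250 bases before the RefSeq start of each are shown. Capitals mark the RY element (CATGCA, read by B3-type seed maturation factors such as ABI3) and the core of the abscisic acid response element (ABRE, ACGTG), each searched on both strands. Coordinates and bases are those of RefSeq's TAIR10.1 release, plus strand, while the labels name TAIR10. The stretches are chr1:27521694-27521943 for TIP3-1 and chr1:6129775-6130024 for TIP3-2.
TIP3-1: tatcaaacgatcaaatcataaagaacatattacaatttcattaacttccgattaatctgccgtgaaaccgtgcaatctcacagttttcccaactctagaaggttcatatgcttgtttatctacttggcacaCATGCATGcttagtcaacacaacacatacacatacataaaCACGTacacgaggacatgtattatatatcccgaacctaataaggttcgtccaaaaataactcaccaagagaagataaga
TIP3-2: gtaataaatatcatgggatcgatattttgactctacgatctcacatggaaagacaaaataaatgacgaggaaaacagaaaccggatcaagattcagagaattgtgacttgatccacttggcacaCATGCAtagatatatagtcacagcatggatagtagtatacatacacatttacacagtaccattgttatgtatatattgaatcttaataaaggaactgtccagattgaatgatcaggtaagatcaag
The longest run that both share is 17 bases, acttggcacacatgcat, which holds the RY element and begins 129 bases before the start in TIP3-1 and 136 bases before it in TIP3-2. TIP3-1 has 2 overlapping RY matches on opposite strands, and its ABRE core begins 79 bases before the start. The ABRE core of TIP3-2 lies after the start, 25 bases into the transcript, where the 2 strands each match. In windows from 250 bases before to 50 bases after the start, both motifs occur together in 2.91% of 27443 protein-coding genes and in 2 of the 35 aquaporins, TIP3-1 and TIP3-2. The RY element, with or without an ABRE core, is in 9.72% of all windows and in 10 of the 35 aquaporins. The ABRE core, with or without an RY element, is in 26.7% and in 6 of the 35. The class I TCP site (GGNCCCAC) is in 1.32% of all windows and in 1 of the 35, TIP1-3. These matches describe letters only, and no binding was measured.

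Libraries held 12170793 to 21233207 counted pairs of reads. Levels are given as CPM (pairs of a gene brought to a common library size with each library's TMM factor) and where genes are compared with each other, as CPM per kilobase of the transcript model's length. The TMM factors were 0.707 to 0.777 in dry and 1.16 to 1.60 in imbibed libraries, so changes on imbibition are relative to most other genes. With library totals alone the median gene's log2 change on imbibition is 1.09 higher in wild type, 0.82 higher in mpk8 and 0.73 higher in the libraries labelled tcp14. By summed level the marker lists place the material in seeds. In dry wild type embryo markers stood at 70856 to 76275 CPM and endosperm markers at 27418 to 30181 CPM. The endosperm sum was almost all EPR1, while EXPA2, its other gene, stood at 0 to 0.208 CPM. Pollen markers stood at 149 to 163 CPM, green leaf markers at 18.4 to 19.5 CPM and seed coat markers at 0.312 to 0.961 CPM. All 5 embryo genes had pairs in every group, but genes of the other lists had pairs too. MPK8 ran at 11.05 to 12.7 CPM in wild type and 3.66 to 4.77 CPM in mpk8. TCP14 went against its label: it stood at 43.5 to 44.5 CPM in dry tcp14-labelled libraries against 5.77 to 8.43 CPM in dry wild type, and at 30.9 to 36.6 CPM against 13.7 to 17.7 CPM after imbibition. These libraries are therefore called tcp14-labelled, and directions drawn from them concern the label. Dry libraries labelled tcp14 also differ from wild type in 3 stretches of chromosomes 1 and 3. There 7.67% to 11.1% of tested genes changed at least 2-fold at an adjusted p under 0.05, against 0.704% elsewhere. The stretches were picked from this same comparison, as runs of chromosome bins with at least 4% of such genes. A higher share than elsewhere was therefore built into the choice. PIP1-1, PIP2-1, PIP2-5, TIP1-2 and SIP2-1 lie in these stretches, as do TIP5-1 and NIP3-1, which have few pairs.

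**Figure D1:**
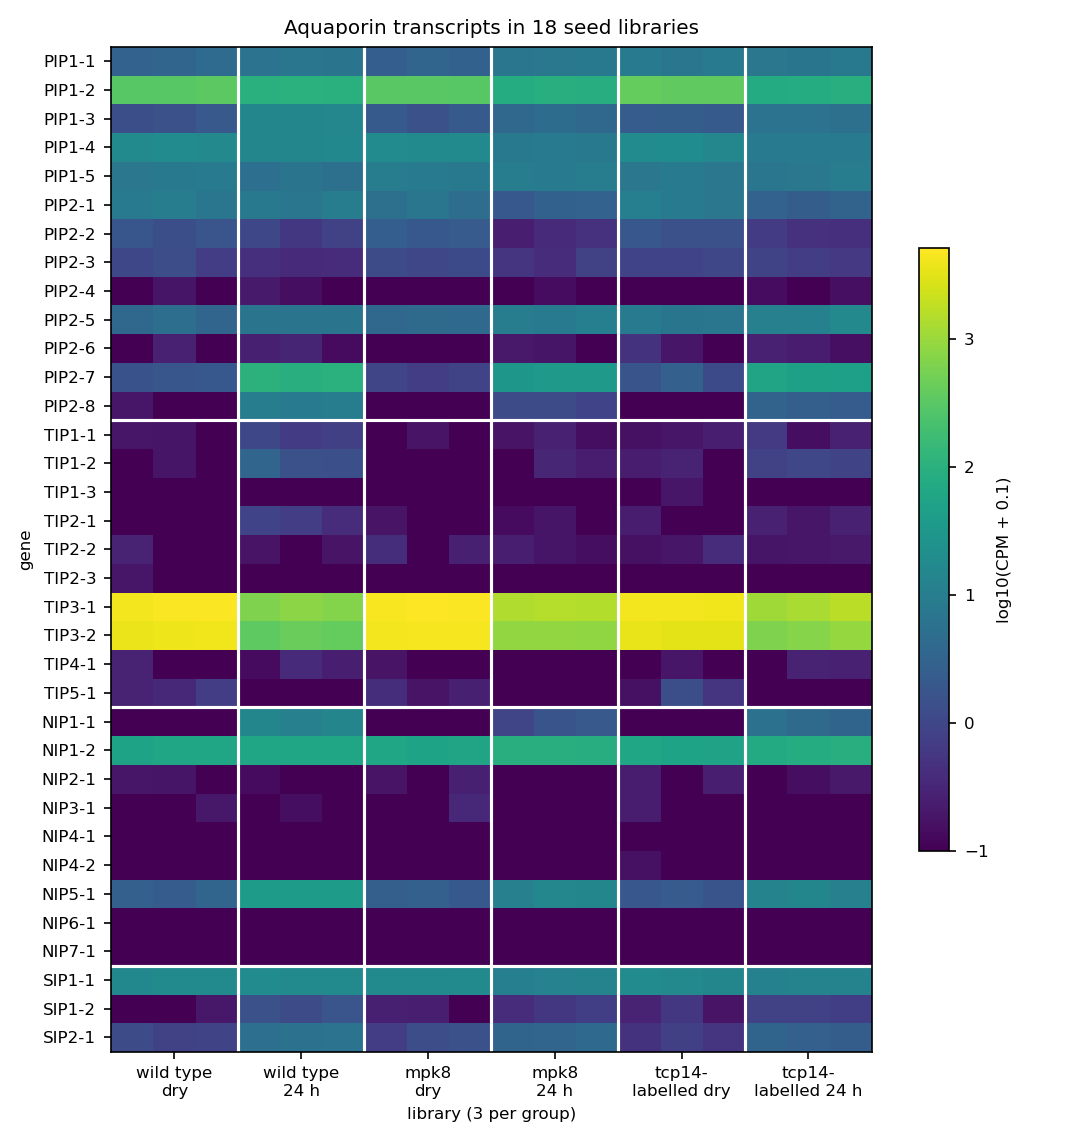
Level of each aquaporin gene (rows, by subfamily) in each of the 18 libraries (columns, 3 per group), as log10 of CPM plus 0.1 on the colour scale. TIP3-1 and TIP3-2 are the brightest rows in every library, PIP2-7, PIP2-8, NIP1-1 and NIP5-1 brighten after 24 h of imbibition, and 14 rows stay at or near the bottom of the scale.

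Dry seeds held aquaporin RNA that was almost entirely TIP3. In dry wild type, TIP3-1 stood at 3952 ± 214 and TIP3-2 at 3359 ± 108 CPM per kilobase (SD, n = 3), followed by PIP1-2 at 248 ± 14.1, NIP1-2 at 46.4 ± 2.76 and SIP1-1 at 15.7 ± 1.02. The libraries of neighbouring genes do not overlap over these 5 places, nor between SIP1-1 and PIP1-4, whose mean was 10.5, whereas PIP1-5 and PIP2-1 overlap, as do PIP2-5 and PIP1-1. The TIP3 genes together made up 95.5% ± 0.104 of the summed level per kilobase of all 35 genes. PIPs held 3.69% ± 0.0934, NIPs 0.631% ± 0.0128 and SIPs 0.217% ± 0.00245. The other 8 TIP genes together held 0.00787% ± 0.00244.

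After 24 h of imbibition wild type seeds had far less TIP3 RNA and a different set of minor members. The summed level of all aquaporins was 7659 ± 337 CPM per kilobase in dry and 1250 ± 91.6 in imbibed libraries (SD, n = 3), and the TIP3 share was 74.0% ± 2.49 after imbibition. Without TIP3 the sum was 348 ± 17.6 dry and 323 ± 7.68 imbibed. The near equality of this remainder holds with TMM, relative to most other genes. Library totals put the median gene's log2 change 1.09 higher, and the remainder was not summed on that scale. PIP1-2 made up 71.2% ± 0.900 of that remainder in dry and 23.9% ± 0.892 in imbibed seeds. NIPs went from 13.9% ± 0.252 to 26.2% ± 0.242 of it. The order per kilobase after imbibition was TIP3-1 at 594 ± 64.2, TIP3-2 at 333 ± 34.9, PIP2-7 at 84.5 ± 5.24, PIP1-2 at 77.3 ± 1.09, NIP1-2 at 47.8 ± 0.590 and NIP5-1 at 25.6 ± 0.311, with no overlap between neighbours over these 6 places. The aquaporins' share of all counted pairs was 0.652% to 0.685% in dry and 0.223% to 0.250% in imbibed wild type libraries.

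**Figure D2:**
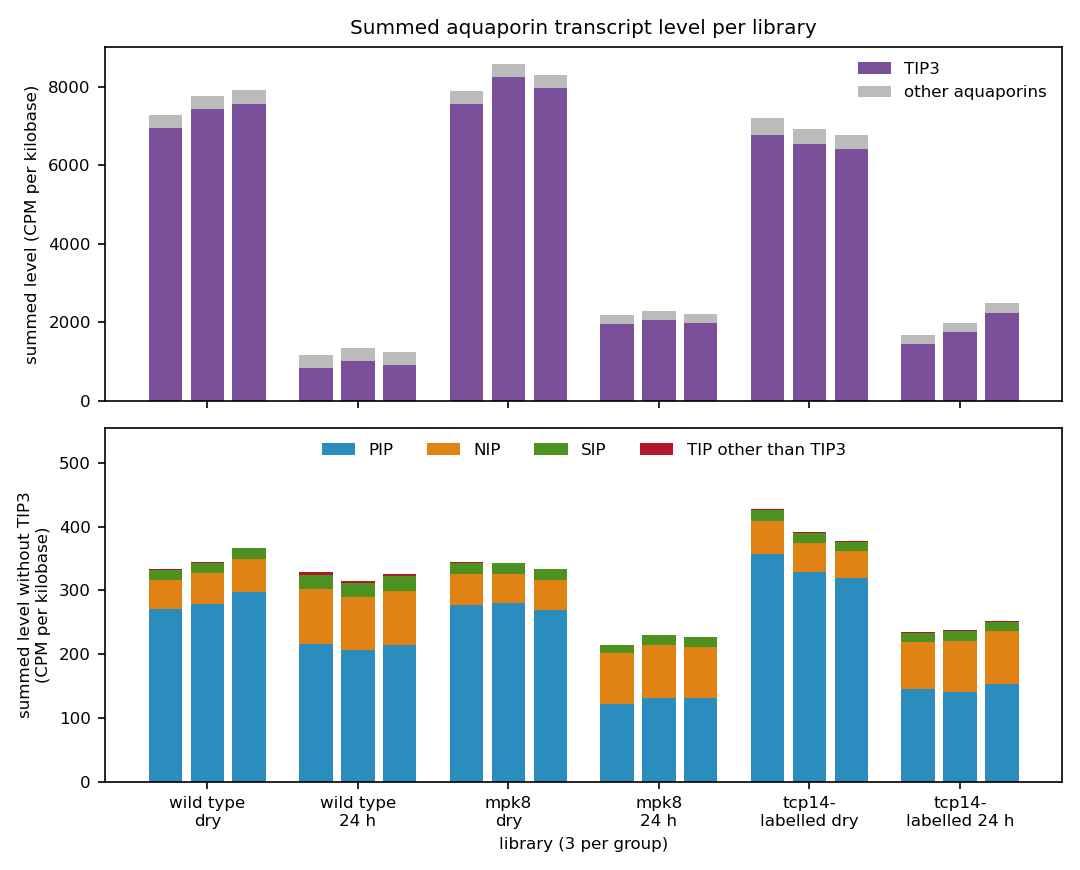
Summed level of the aquaporin genes in CPM per kilobase for each library (1 bar each, 3 per group, both axes from 0), split into TIP3 and the other genes above, and into subfamilies without TIP3 below. TIP3 fills 95.5% of the wild type dry bars and 74.0% of the imbibed ones on average, and the NIP part of the remainder grows with imbibition in each genotype.

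Of the 35 genes, 21 had enough pairs to be tested (11 PIP, 4 TIP, 3 NIP and 3 SIP). For members that passed the filter only through a group where they are high, the filter itself favours a difference. On imbibition of wild type, 11 of the 21 rose and 7 fell at an adjusted p under 0.05 in edgeR's quasi-likelihood test. Of those that rose, PIP2-8, NIP1-1, SIP1-2, TIP1-2 and TIP1-1 reached the filter's minimum only in imbibed libraries. A rise of these genes on imbibition, in any genotype, is therefore a description and not evidence independent of the filter. Of all 18061 genes tested 46.0% rose and 40.1% fell, 86.1% in all, so the count of members called is near the background. By subfamily, 5 of 11 PIPs rose and 5 fell, 2 of 4 TIPs rose and 2 fell, and 2 of 3 NIPs and 2 of 3 SIPs rose with 0 lower in either. The median log2 fold change of the 21 was 0.64, beside 0.14 over all genes tested. It includes the genes that reached the filter's minimum only in imbibed libraries, so this contrast is not independent of the filter either. With library totals in place of TMM, 16 rose and 3 fell.

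TIP3-1 (AT1G73190) and TIP3-2 (AT1G17810) fell. The libraries of dry wild type held 4371, 4764 and 4843 CPM of TIP3-1, and those of imbibed wild type 627, 779 and 696 CPM. For TIP3-2 the values were 3802, 3967 and 4050.3 CPM dry and 349, 431 and 391 CPM imbibed. Every imbibed library lay below every dry one for both genes. The log2 fold change was -2.73 (SE 0.115, adjusted p = 1.9e-16) for TIP3-1, a 6.65-fold lower level, and -3.34 (SE 0.111, adjusted p = 2.1e-18) for TIP3-2, a 10.1-fold lower level. Under library totals both still fell, by 1.65 and 2.25 on the log2 scale. The ratio of TIP3-2 to TIP3-1 per kilobase was 0.851 ± 0.0205 dry and 0.560 ± 0.00456 imbibed (SD, n = 3). In bulk seeds, fewer cells of a type and less RNA per cell cannot be told apart. The 2 endosperm markers moved in opposite directions, EPR1 with a log2 fold change of -3.21 (SE 0.149, adjusted p = 1.2e-15) and EXPA2 with 10.55 (SE 0.336, adjusted p = 8.5e-19). The summed embryo markers were at 70856 to 76275 CPM in dry and 27530.3 to 33354 CPM in imbibed wild type, most of it CRA1, and its 5 genes differed: OLEO1 had a log2 fold change of -3.02, GEA6 of -3.06, EM1 of -1.58 and CRA1 of -0.69, while ABI3 rose by 0.25. Their part in the TIP3 result was not tested.

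Among the other TIPs, TIP1-1 and TIP1-2, the vacuolar forms typical of growing and vegetative cells, rose from almost no pairs. TIP1-2 had 0, 1 and 0 pairs in the dry and 87, 26 and 36 pairs in the imbibed wild type libraries, a ratio of 66.4 after scaling (95% exact interval 11.7 to 2639, counting error only). TIP1-1 had 1, 1 and 0 pairs dry and 24, 11 and 18 imbibed, a ratio of 11.8 (3.11 to 100.005, counting error only). TIP2-1, a tonoplast form that also passes ammonia, was not tested because of its low counts. It had 0 pairs in dry wild type and 20, 12 and 8 pairs after imbibition, at least 6.06-fold higher when 3 pairs over the dry group are taken as the floor. Its mean level after imbibition was 0.572 CPM.

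The PIP1 group did not move together. PIP1-2 (AT2G45960), the PIP with the highest level per kilobase in dry seeds, fell from 309, 314 and 343 CPM in dry to 99.9, 102 and 99.3 CPM in imbibed wild type, a log2 fold change of -1.68 (SE 0.0624, adjusted p = 1.6e-17). PIP1-3 (AT1G01620) rose from 1.25, 1.36 and 1.98 CPM to 14.8, 14.6 and 14.9 CPM, a log2 fold change of 3.28 (SE 0.156, adjusted p = 1.9e-15). Neither gene's groups overlap. PIP1-1 rose by less, with a log2 fold change of 0.87 (SE 0.147, adjusted p = 9e-06), from 2.98 to 4.27 CPM in dry to 6.21 to 6.86 CPM in imbibed libraries. PIP1-5 fell with a log2 fold change of -0.53 (SE 0.131, adjusted p = 0.00071), but was higher by 0.56 with library totals. PIP1-4 had a log2 fold change of -0.21 (SE 0.0898, adjusted p = 0.033), which turned to 0.88 with library totals and missed the threshold with each of 4 of the 6 libraries left out in turn and in DESeq2.

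In the PIP2 group, PIP2-7 and PIP2-8, close relatives, rose most. PIP2-7 (AT4G35100) stood at 1.44, 1.70 and 1.87 CPM in dry and 107, 94.9 and 104 CPM in imbibed wild type, a 61.0-fold higher level (log2 fold change 5.93, SE 0.144, adjusted p = 5.8e-21). PIP2-8 (AT2G16850) had 1 pair in the 3 dry libraries together and 10.1, 8.44 and 9.60 CPM after imbibition, a ratio of 301 (95% exact interval 53.8 to 11894, counting error only). Neither gene's groups overlap. PIP2-5 rose with a log2 fold change of 0.64 (SE 0.170, adjusted p = 0.0014), from 3.33 to 5.01 CPM in dry to 6.29 to 6.38 CPM in imbibed libraries. PIP2-1, a main water channel of roots and leaves, was at 8.36, 9.43 and 6.97 CPM dry and at 8.06, 6.86 and 9.64 CPM imbibed, which overlap (log2 fold change -0.01, SE 0.171, adjusted p = 0.96), but with library totals it was called higher, by 1.08 (adjusted p = 4.9e-06). PIP2-2 fell with a log2 fold change of -1.06 (SE 0.303, adjusted p = 0.0026), which became 0.0197 with library totals. PIP2-3, also known as RD28 for its response to desiccation, fell with a log2 fold change of -1.59 (SE 0.386, adjusted p = 0.00059), no longer called with library totals. The coding sequences of PIP2-2 and PIP2-3 are 94.8% identical with a shared run of 242 bases, and pairs that fit several places equally well were removed, so the level of each is uncertain.

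Of the NIPs, NIP1-1 appeared, NIP5-1 rose and NIP1-2 did not pass the test. NIP1-1 (AT4G19030), a channel through which arsenite enters roots, had 0 pairs in every dry wild type library and 14.4, 11.2 and 13.9 CPM after imbibition, at least 139.6-fold higher (floor of 3 pairs over the dry group). NIP5-1 (AT4G10380), the boric acid channel of roots, went from 2.69, 2.21 and 3.33 CPM to 39.5, 38.5 and 39.0 CPM, with a log2 fold change of 3.84 (SE 0.148, adjusted p = 3.2e-17). NIP1-2 (AT4G18910) had 53.8, 58.2 and 60.6 CPM in dry and 59.3, 60.0 and 58.5 CPM in imbibed libraries, which overlap (log2 fold change 0.04, SE 0.0687, adjusted p = 0.56), but with library totals it was called higher, by 1.13 (adjusted p = 3.7e-15). The groups of NIP1-1 and of NIP5-1 do not overlap.

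SIP1-2 and SIP2-1 rose while SIP1-1, the most abundant SIP, did not pass the test. SIP2-1 went from 1.15, 0.765 and 0.832 CPM in dry to 5.23, 5.65 and 6.15 CPM in imbibed wild type (log2 fold change 2.63, SE 0.236, adjusted p = 3.5e-10). SIP1-2 had 1 pair in the dry libraries together and 35, 21 and 44 pairs after imbibition, a ratio of 44.5 (95% exact interval 7.81 to 1777, counting error only). SIP1-1 ran from 16.0 to 18.2 CPM dry and from 17.8 to 18.5 CPM imbibed, which overlap (log2 fold change 0.07, SE 0.0915, adjusted p = 0.50), but with library totals it was called higher, by 1.16 (adjusted p = 3.1e-11).

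**Figure D3:**
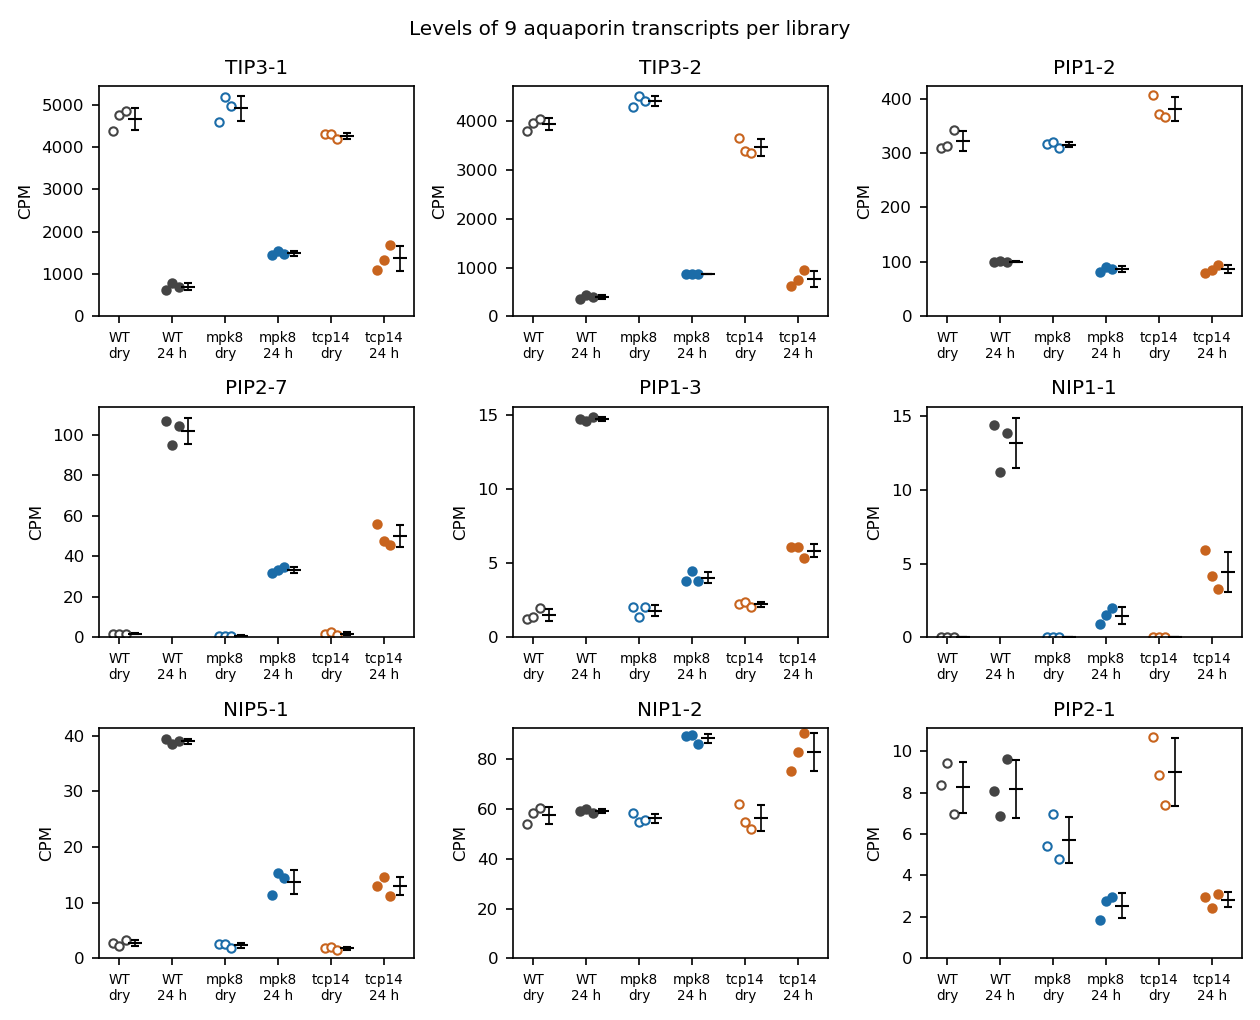
CPM of 9 aquaporin genes in each library (points, open for dry and filled for imbibed), with the group mean and SD (bars) beside them, on axes from 0. TIP3-1, TIP3-2 and PIP1-2 are high in dry seeds, PIP2-7, PIP1-3, NIP1-1 and NIP5-1 are high in imbibed wild type and lower in both other genotypes, and PIP2-1 is lower in imbibed mpk8 and tcp14-labelled libraries than in imbibed wild type.

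The remaining 14 genes were too low to test. PIP2-4, PIP2-6, TIP1-3, TIP2-1, TIP2-2, TIP2-3, TIP4-1, TIP5-1, NIP2-1, NIP3-1 and NIP4-2 had at least 1 pair in some library, and at most 20 pairs in any. NIP4-1, NIP6-1 and NIP7-1 had no pair in any of the 18 libraries. Several of these are known from other organs: TIP1-3, TIP5-1, NIP4-1 and NIP4-2 from pollen, NIP7-1 from anthers and NIP6-1 from shoot nodes. TIP5-1 had pairs in all 9 dry libraries and in none of the 9 imbibed ones, with 2, 3 and 6 pairs in wild type, 4, 1 and 2 in mpk8 and 1, 13 and 6 in tcp14-labelled libraries. Summed pollen markers moved with it, from 149 to 163 CPM in dry wild type, 92.3 to 95.2 CPM in dry mpk8 and 158 to 223 CPM in dry tcp14-labelled libraries to at most 0.113 CPM in any imbibed library. Of the 10 pollen genes, 8 had a pair in dry wild type and MGH3 and DUO1 were at 0, and the part of pollen in the TIP5-1 counts was not tested.

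TIP3 also fell, and PIP2-7 and NIP5-1 also rose, when the other genotypes were imbibed. In mpk8, 10 of the 21 tested members rose and 8 fell (13 and 5 with library totals), beside 44.4% of all genes higher and 38.7% lower, 83.1% in all. In tcp14-labelled seeds 10 rose and 7 fell (14 and 6 with library totals), beside 43.8% higher and 39.3% lower, 83.1% in all. TIP3-1 fell with a log2 fold change of -1.73 (SE 0.111, adjusted p = 8.6e-13) in mpk8 and -1.64 (SE 0.111, adjusted p = 2.2e-12) in tcp14-labelled seeds. TIP3-2 fell with -2.34 (SE 0.107, adjusted p = 1.2e-15) and -2.18 (SE 0.106, adjusted p = 4.6e-15). PIP2-7 rose in both, with log2 fold changes of 5.44 (SE 0.175, adjusted p = 1.4e-18) and 4.89 (SE 0.145, adjusted p = 3.4e-19). NIP5-1 rose with 2.52 (SE 0.156, adjusted p = 4.4e-13) and 2.84 (SE 0.166, adjusted p = 1.5e-13).

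Relative to most genes, NIP1-2 and PIP2-1, which were not called in wild type with TMM, were called in the other genotypes. NIP1-2 rose in mpk8 (log2 fold change 0.65, SE 0.0670, adjusted p = 4.3e-09) and in tcp14-labelled seeds (0.56, SE 0.0673, adjusted p = 6.6e-08). PIP2-1 fell in mpk8 (-1.19, SE 0.202, adjusted p = 1.1e-05) and in tcp14-labelled seeds (-1.68, SE 0.190, adjusted p = 2.3e-08), though in mpk8 it was not called with library totals. SIP1-1 had log2 fold changes of -0.57 and -0.43, which turned to 0.26 and 0.30 with library totals. NIP1-1 was at 0 in the dry libraries of both and rose at least 18.7-fold in mpk8 and at least 58.4-fold in tcp14-labelled seeds, and PIP2-8, likewise at 0, at least 13.0-fold and at least 34.1-fold. TIP1-2 had 0 pairs in dry mpk8 and 0, 5 and 3 pairs after imbibition. The TIP3 share of the summed level per kilobase went from 95.9% ± 0.201 to 89.9% ± 0.225 in mpk8 and from 94.3% ± 0.197 to 88.0% ± 1.88 in tcp14-labelled seeds. Here the ratio of TIP3-2 to TIP3-1 went from 0.905 ± 0.0346 to 0.592 ± 0.0200 and from 0.818 ± 0.0352 to 0.566 ± 0.0106.

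**Figure D4:**
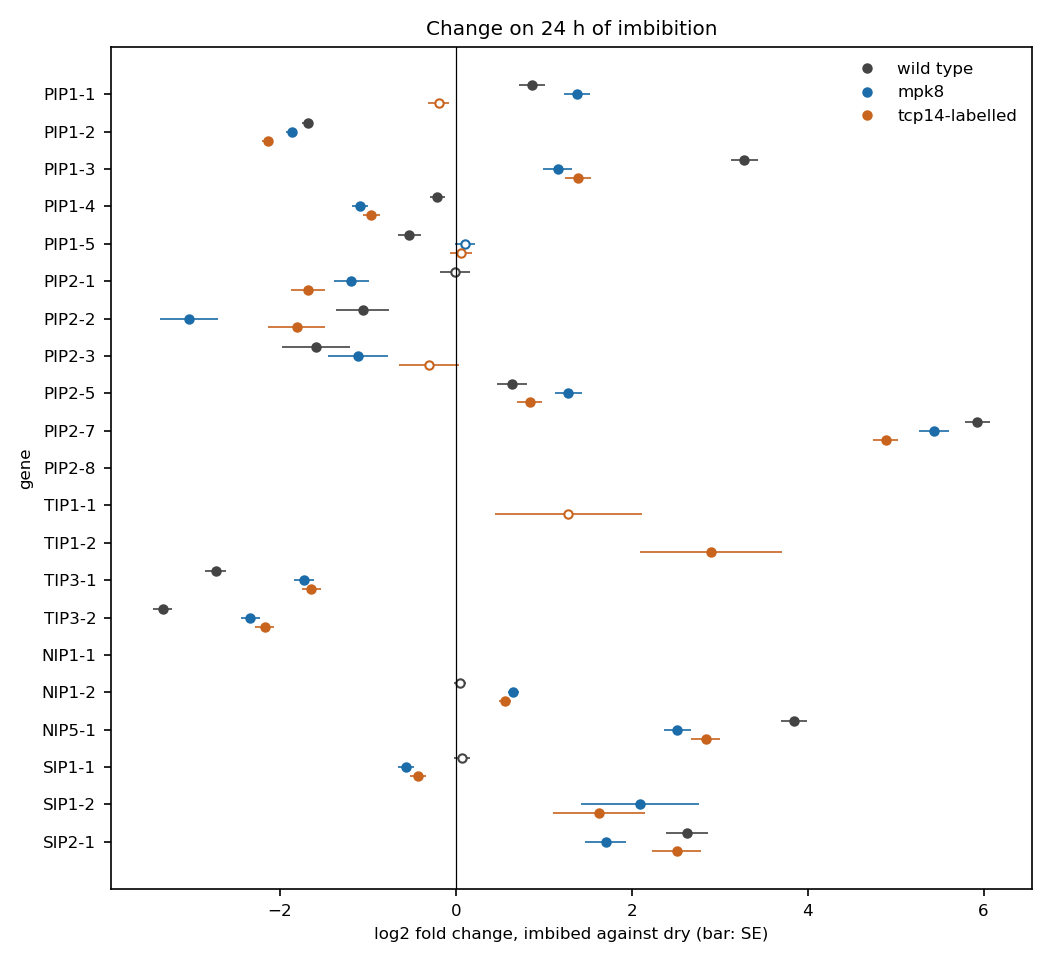
Log2 fold change of each tested aquaporin, imbibed against dry, in the 3 genotypes (points, with SE as bars), filled where the adjusted p is under 0.05. Changes are left out where either group holds 3 pairs or fewer. TIP3-1 and TIP3-2 lie at -2.73 and -3.34 in wild type and nearer to 0 in the other genotypes, and PIP2-7 at 5.93, 5.44 and 4.89.

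Before imbibition, 0 of the 21 tested members were called between mpk8 and wild type by edgeR. Of all genes 1.54% were called higher and 1.09% lower, 2.62% in all, and 2 members had an unadjusted p under 0.05. DESeq2 called 1 of them, PIP2-7, at 0.864, 0.604 and 0.814 CPM in mpk8 against 1.44, 1.70 and 1.87 CPM in wild type, levels that do not overlap (edgeR log2 fold change -1.13, SE 0.336, adjusted p = 0.074). TIP3-1 in dry mpk8 was at 4585, 5181 and 4956 CPM and TIP3-2 at 4302, 4513 and 4423 CPM. Their log2 differences from wild type were 0.07 (SE 0.108, adjusted p = 0.80) and 0.16 (SE 0.101, adjusted p = 0.44).

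Dry tcp14-labelled seeds had 3 members higher than wild type and 0 lower, beside 6.12% of all genes higher and 5.27% lower, 11.4% in all. PIP1-1 was at 8.80, 7.12 and 8.89 CPM against 2.98, 3.40 and 4.27 CPM, a log2 difference of 1.24 (SE 0.150, adjusted p = 2.5e-06). PIP2-5 was at 8.22, 6.64 and 6.97 CPM against 3.75, 5.01 and 3.33 CPM, a log2 difference of 0.85 (SE 0.176, adjusted p = 0.0021). Both genes lie in the stretch of chromosome 3 described above, whose part in these differences was not tested. PIP1-1 is itself among the genes by which that stretch was picked. Outside the 3 stretches 1 member, PIP1-2, was called, at 407, 371 and 366 CPM against 309, 314 and 343 CPM (log2 difference 0.24, SE 0.0603, adjusted p = 0.0089), and its call was lost with each of 3 of the 6 libraries left out in turn (wild type replicate 1 or 2, or tcp14-labelled replicate 1), at adjusted p values of 0.053 to 0.064. In this comparison 7 of the 21 had an unadjusted p under 0.05 in either direction, DESeq2 called the same number, 3, and a fit of these 2 groups alone called 5, with TIP3-1 and TIP3-2 lower. In dry tcp14-labelled libraries TIP3-1 was at 4295, 4304 and 4188 CPM and TIP3-2 at 3665, 3388 and 3349 CPM.

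After 24 h the aquaporins of mpk8 differed from wild type in 19 of 21 tested members, with TIP3 higher and most others lower. The 5 higher and 14 lower members stand beside 33.8% of all genes called higher and 30.8% called lower, 64.6% in all. Their median log2 difference was -0.87, beside 0.04 over all genes tested. In tcp14-labelled seeds 6 members were higher and 13 lower (4 and 14 with library totals), beside 27.3% of all genes higher and 28.0% lower, 55.2% in all, with a median of -0.75 beside 0.00 over all genes tested. Both comparisons use the same wild type libraries, so they are not independent of each other. The scaling by library totals moves the median gene by -0.32 in the first and -0.33 in the second.

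TIP3-1 stood at 1441, 1536 and 1475 CPM in imbibed mpk8 and at 1087, 1331 and 1678 CPM in imbibed tcp14-labelled libraries, all above the 627 to 779 CPM of imbibed wild type. TIP3-2 stood at 877, 874 and 867 CPM and at 624, 736 and 944 CPM, all above the 349 to 431 CPM of wild type. The log2 differences from wild type were 1.08 (SE 0.109, adjusted p = 1.2e-08) for TIP3-1 and 1.16 (SE 0.103, adjusted p = 1.7e-09) for TIP3-2 in mpk8. In tcp14-labelled seeds they were 0.96 (SE 0.109, adjusted p = 1.6e-07) and 0.98 (SE 0.103, adjusted p = 5.8e-08). With library totals all 4 stayed higher, at 0.75 and 0.83 in mpk8 and 0.62 and 0.63 in tcp14-labelled seeds. Between mpk8 and tcp14-labelled imbibed seeds the differences of 0.12 (SE 0.108) and 0.19 (SE 0.102) did not pass the test (adjusted p = 0.48 and 0.21), a result that rests on 1 library. Imbibed tcp14-labelled replicate 3 had a summed TIP3 level of 2228 CPM per kilobase against 1453 and 1757 in the other libraries of its group. Without it, mpk8 was higher by 0.29 for TIP3-1 (SE 0.0894, adjusted p = 0.022) and 0.35 for TIP3-2 (SE 0.0807, adjusted p = 0.0025), and the differences of tcp14-labelled seeds from wild type were 0.78 and 0.80 (adjusted p = 2e-07 and 3.6e-08). Of the endosperm markers, EPR1 was higher and EXPA2 lower than in imbibed wild type, by log2 differences of 1.12 and -3.16 in mpk8 (adjusted p = 2.5e-07 and 7.8e-14) and 0.84 and -1.26 in tcp14-labelled seeds (adjusted p = 2.3e-05 and 3.5e-08). Summed embryo markers were at 67524 to 69624 CPM in imbibed mpk8 and 63744 to 90387 CPM in imbibed tcp14-labelled libraries, again mostly CRA1. Each of the 5 was called higher than in imbibed wild type in both genotypes, with log2 differences in mpk8 of 1.18 for CRA1, 1.11 for OLEO1, 1.08 for GEA6, 1.04 for EM1 and 0.43 for ABI3. From dry to imbibed mpk8, however, CRA1 rose by 0.58 while OLEO1 had -2.04 and GEA6 -2.11. The part of either in the TIP3 differences was not tested.

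After imbibition, the members that rose most in wild type were lower in both other genotypes. This compares imbibed levels, and the test of the response itself is given further below. The members were picked by their rise in the same imbibed wild type libraries, so part of the shared direction may come from that choice. PIP2-7 was at 31.6, 33.3 and 34.7 CPM in imbibed mpk8 and at 56.1, 47.8 and 45.8 CPM in imbibed tcp14-labelled libraries, against 94.9 to 107 CPM in wild type. Its log2 differences were -1.62 (SE 0.0847, adjusted p = 5.4e-13) and -1.03 (SE 0.0828, adjusted p = 1e-09). The 3 genotypes do not overlap in PIP2-7. PIP2-8 was at 1.10, 1.16 and 0.805 CPM and at 3.03, 2.55 and 2.21 CPM, against 8.44 to 10.1 CPM, with log2 differences of -3.18 (SE 0.186, adjusted p = 4.3e-11) and -1.84 (SE 0.164, adjusted p = 2.9e-08). NIP1-1 was at 0.870, 1.55 and 1.99 CPM and at 5.94, 4.16 and 3.26 CPM, against 11.2 to 14.4 CPM, with log2 differences of -3.20 (SE 0.234, adjusted p = 3e-09) and -1.55 (SE 0.202, adjusted p = 5.9e-06). Again no library of 1 genotype reached those of another.

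PIP1-3 was at 3.82, 4.47 and 3.84 CPM in imbibed mpk8 and at 6.11, 6.09 and 5.36 CPM in imbibed tcp14-labelled libraries, against 14.6 to 14.9 CPM in wild type. Its log2 differences were -1.87 (SE 0.113, adjusted p = 4.7e-12) and -1.33 (SE 0.110, adjusted p = 1.5e-09). NIP5-1, at 11.3, 15.3 and 14.4 CPM and at 13.0, 14.6 and 11.3 CPM against 38.5 to 39.5 CPM, was lower in both, with log2 differences of -1.52 (SE 0.105, adjusted p = 3.8e-11) and -1.59 (SE 0.106, adjusted p = 7.4e-11). PIP2-1, which on imbibition of wild type was not called with TMM, was lower too, at 1.85, 2.79 and 2.98 CPM and at 2.95, 2.41 and 3.10 CPM against 6.86 to 9.64 CPM. Its log2 differences were -1.71 (SE 0.180, adjusted p = 2.3e-08) and -1.55 (SE 0.181, adjusted p = 2.4e-07).

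TIP1-2 was at 0, 0.215 and 0.142 CPM in imbibed mpk8 and at 0.703, 0.897 and 0.829 CPM in imbibed tcp14-labelled libraries, against 3.42, 1.37 and 1.33 CPM in wild type. Wild type replicate 1 held 87 of the 149 pairs there. The log2 differences were -4.11 (SE 0.552, adjusted p = 1.5e-06) and -1.35 (SE 0.394, adjusted p = 0.0064), the second of which was -0.74 (adjusted p = 0.13) without that library. TIP1-1 passed the filter only through imbibed wild type, where it is high, so its difference from that group is given as a description: it had 24, 11 and 18 pairs there, 2, 4 and 1 in imbibed mpk8 and 12, 1 and 3 in imbibed tcp14-labelled libraries. It is 1 of the members counted as higher on imbibition of wild type and as lower in both genotypes, and those counts do not rest on evidence from it. All 3 SIPs were lower in both genotypes, with log2 differences of -0.61, -1.55 and -0.70 for SIP1-1, SIP1-2 and SIP2-1 in mpk8 and of -0.56, -0.93 and -1.02 in tcp14-labelled seeds. The SIP1-2 difference in tcp14-labelled seeds was not called by DESeq2 (adjusted p = 0.057) or without wild type replicate 3 (adjusted p = 0.091). The summed green leaf markers moved the same way as these members, at 257 to 306 CPM in imbibed wild type, 80.7 to 89.3 CPM in imbibed mpk8 and 139.5 to 174 CPM in imbibed tcp14-labelled libraries, against 17.6 to 22.7 CPM in dry ones. Most of the sum was RBCS1A, at 263, 231 and 250 CPM in imbibed wild type, and RCA moved likewise. CAB2, at 2.52, 0.0528 and 0.0371 CPM there, and CAB3, at 4.05, 0.317 and 0.779 CPM, were low and highest in replicate 1. CAB2 was at 0 in imbibed mpk8 and in imbibed tcp14-labelled replicates 2 and 3. The part of these markers was not tested.

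Besides TIP3, PIP1-5, PIP2-5 and NIP1-2 were higher in both genotypes. NIP1-2 was at 89.3, 89.6 and 86.2 CPM in imbibed mpk8 and at 75.4, 83.0 and 90.5 CPM in imbibed tcp14-labelled libraries, against 58.5 to 60.0 CPM in wild type. The log2 differences were 0.58 (SE 0.0647, adjusted p = 5.9e-08) and 0.48 (SE 0.0650, adjusted p = 1.7e-06). Per kilobase NIP1-2 came after the TIP3 genes in both, at 71.3 ± 1.53 and 66.9 ± 6.11 (SD, n = 3), with libraries that overlap those of PIP1-2 at 66.7 ± 3.81 and 66.6 ± 5.77. PIP2-7, which held that place in imbibed wild type at 84.5, was at 27.5 ± 1.28 and 41.3 ± 4.50. PIP2-5 was at 9.49, 9.02 and 10.7 CPM and at 11.2, 11.8 and 16.5 CPM, against 6.29 to 6.38 CPM, with log2 differences of 0.62 (SE 0.133, adjusted p = 0.00032) and 1.05 (SE 0.132, adjusted p = 6.7e-07). In tcp14-labelled seeds PIP2-5 was already higher when dry, its imbibition response was not called, and it lies in a stretch of chromosome 3 described above, whose part was not tested. PIP1-5 differed by 0.75 (SE 0.116, adjusted p = 5.8e-06) and 0.51 (SE 0.120, adjusted p = 0.00099), the latter not called with library totals. PIP2-3 was called higher in tcp14-labelled seeds alone (1.08, SE 0.361, adjusted p = 0.014), a call lost without tcp14-labelled replicate 1 (adjusted p = 0.092) or with library totals (adjusted p = 0.085). PIP1-2 was lower by small amounts with TMM, -0.21 (SE 0.0620, adjusted p = 0.0047) and -0.22 (SE 0.0623, adjusted p = 0.0053). With library totals its differences were -0.545 in mpk8 and -0.554 in tcp14-labelled seeds. PIP1-4 was lower by -0.87 and -0.74, and PIP2-2 by -1.50 in mpk8 (SE 0.364, adjusted p = 0.00095).

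**Figure D5:**
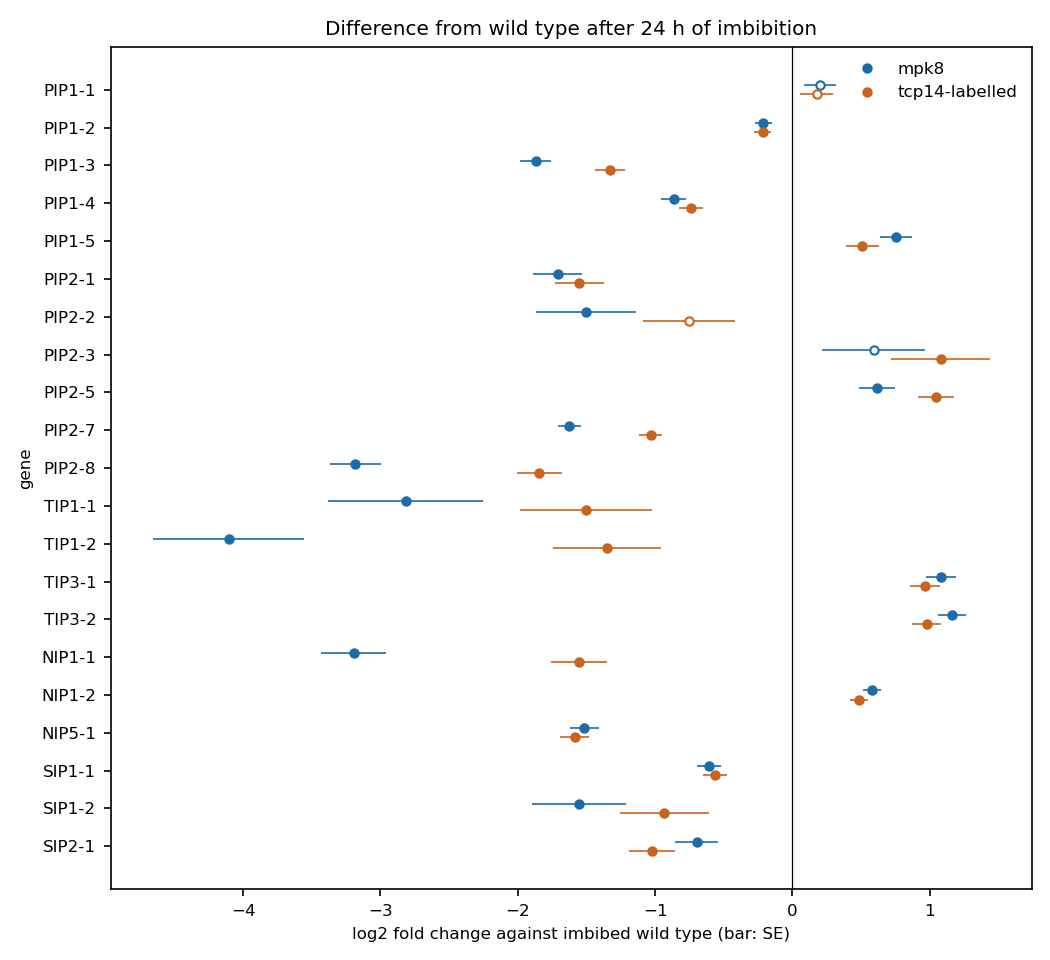
Log2 difference from imbibed wild type of each tested aquaporin in imbibed mpk8 and tcp14-labelled seeds (points, with SE as bars), filled where the adjusted p is under 0.05. TIP3-1, TIP3-2, PIP1-5, PIP2-5 and NIP1-2 lie above 0 and PIP2-8, NIP1-1, PIP2-7 and PIP1-3 below it in both, with the points of mpk8 farther out for TIP1-2 (-4.11 against -1.35) and NIP1-1 (-3.20 against -1.55).

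Set directly against each other with all libraries, imbibed mpk8 had 6 members lower than imbibed tcp14-labelled seeds and 0 higher, but without tcp14-labelled replicate 3 it had 5 lower and 3 higher. The 3 were TIP3-1, TIP3-2 and PIP1-5, the last at a log2 difference of 0.36 (SE 0.119, adjusted p = 0.031). The counts with all libraries stand beside 9.45% of all genes higher and 11.6% lower, 21.0% in all. The 6 lower were TIP1-2 (log2 difference -2.76, SE 0.657, adjusted p = 0.0044), NIP1-1 (-1.64, SE 0.260, adjusted p = 0.00022), PIP2-8 (-1.34, SE 0.214, adjusted p = 0.00016), PIP2-7 (-0.59, SE 0.0861, adjusted p = 2.4e-05), PIP1-3 (-0.54, SE 0.123, adjusted p = 0.0028) and PIP2-5 (-0.43, SE 0.126, adjusted p = 0.017). PIP2-5 lost its call without mpk8 replicate 1 or 2 or tcp14-labelled replicate 3 (adjusted p = 0.065, 0.078 and 0.12). DESeq2 also called 6 members in all, and 7 members had an unadjusted p under 0.05 in either direction. In dry seeds TIP3-2 (0.35) and SIP2-1 (1.13) were higher and PIP1-1 (-1.55), PIP2-7 (-1.14), PIP2-5 (-0.87), PIP2-1 (-0.65) and PIP1-2 (-0.27) lower in mpk8, beside 12.7% of all genes higher and 12.3% lower, 25.0% in all. Of these, 3 were called outside the stretches of chromosomes 1 and 3, and TIP3-2, SIP2-1, PIP2-7 and PIP2-1 each lost the call without at least 1 of the libraries.

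The test of the difference in imbibition response itself called 12 members for mpk8, 5 with a higher and 7 with a lower response than wild type, beside 24.0% of all genes higher and 15.0% lower, 39.0% in all (3 and 8 members with library totals). For TIP3-1 and TIP3-2 the response was higher by 1.01 (SE 0.153, adjusted p = 2e-05) and 0.998 (SE 0.144, adjusted p = 1.1e-05) on the log2 scale, that is, their fall was smaller. For the tcp14 label it called 13 members, 4 higher and 9 lower, beside 19.2% of all genes higher and 13.9% lower, 33.2% in all (2 and 9 members with library totals), with 1.09 (SE 0.153, adjusted p = 1e-05) for TIP3-1 and 1.16 (SE 0.145, adjusted p = 2.5e-06) for TIP3-2. PIP1-3, which rose less than in wild type, had -2.12 in mpk8 and -1.89 in tcp14-labelled seeds. PIP2-1 had -1.18 and -1.67, and NIP5-1 -1.33 and -1.002. PIP2-7 was not called for mpk8 (-0.76 with library totals, adjusted p = 0.18), where its dry libraries also lay below those of wild type. PIP2-8, NIP1-1, TIP1-2 and TIP1-1 were not called for either genotype. With so few dry pairs, the test could not compare their responses.

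Genes of the compartments in which aquaporins work were followed in 4 lists, whose shares stand beside the shares of all genes given above. Of 13 protein storage vacuole genes, which encode storage proteins, vacuolar processing enzymes and the sorting receptor VSR1, 12 fell and 1 rose on imbibition of wild type, with a median log2 fold change of -2.29. Among them CRU2, a cruciferin, had -3.86 and SESA4, an albumin, -3.69, while DELTA-VPE rose from 0 to 0.192 CPM in dry to 28.5 to 34.8 CPM in imbibed libraries. After imbibition 11 of the 13 were higher and 1 lower than wild type in mpk8, with a median of 0.78, and 11 and 1 in tcp14-labelled seeds, with a median of 1.27. The exception each time was DELTA-VPE, at -1.77 and -1.78.

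Of 11 proton pump genes, which power transport across the vacuole and plasma membranes, 4 rose and 5 fell in wild type. HA2, a plasma membrane pump, rose most (2.94, SE 0.0813, adjusted p = 6.1e-20), and the vacuolar pyrophosphatase AVP1 rose by 0.63 (SE 0.0566, adjusted p = 3.8e-10). Both were lower than wild type after imbibition, HA2 by -0.62 in mpk8 and -0.83 in tcp14-labelled seeds and AVP1 by -0.79 and -0.58. Other pumps stood higher. HA1 was at 404 to 428 CPM in imbibed wild type, 538 to 570 CPM in imbibed mpk8 and 483 to 555 CPM in imbibed tcp14-labelled libraries. VHA-A2 was at 54.6 to 55.3, 67.2 to 69.6 and 60.1 to 64.8 CPM in the same groups. Of 11 genes that act in trafficking or regulation of aquaporins, 1 rose and 8 fell. TSPO, which binds PIP2-7 and directs it to degradation, fell with -3.00 (SE 0.114, adjusted p = 2.5e-17), and RMA3, of a family of ubiquitin ligases that includes a PIP2-1 ligase, with -2.79 (SE 0.0932, adjusted p = 2.1e-18). TSPO was at 1440 to 1506 CPM in dry and 171 to 206 CPM in imbibed wild type, and higher than that by 1.16 in imbibed mpk8 and 1.03 in imbibed tcp14-labelled seeds (adjusted p = 3.4e-09 and 4.9e-08). OST1, a kinase that phosphorylates PIP2-1 in guard cells, rose with 1.53 (SE 0.245, adjusted p = 4e-06) in wild type and was lower by -1.82 and -1.73 in the other genotypes.

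Of 6 seed maturation regulators 4 could be tested, and 2 rose and 2 fell on imbibition of wild type. ABI5, a bZIP factor that binds ABREs, fell from between 1088 and 1144 CPM to between 109 and 122 CPM (-3.29, SE 0.0692, adjusted p = 4.5e-22), and ABI3 rose by 0.25 (SE 0.0585, adjusted p = 0.00036). In imbibed mpk8 3 of the 4 were higher than wild type and ABI4 was lower, with ABI5 at 0.77 (SE 0.0650, adjusted p = 7.3e-10) and ABI3 at 0.43 (SE 0.0570, adjusted p = 6.5e-07). In imbibed tcp14-labelled seeds ABI5 was higher by 0.50 and ABI3 by 0.37, ABI4 was lower by -0.65, and FUS3 did not pass the test (adjusted p = 0.79).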

How the data were processed

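Polyadenylated RNA of Arabidopsis seeds was sequenced as stranded pairs of reads, per the labels' protocols, and TopHat2, Bowtie2 and TAIR10 are named in the submitters' processing notes without versions. Per the file headers, the authors deposited counts of pairs per transcript model, properly paired, with singletons treated as unmapped and reads with equally good hits removed. Those raw counts were analysed with edgeR 4.0.16 in R 4.3.3: filterByExpr, TMM factors, 1 mean for each of 6 groups over 18 libraries, glmQLFit and glmQLFTest, with Benjamini-Hochberg adjustment over the 18061 genes tested in each of 11 comparisons and a threshold of 0.05. SE is the log2 fold change divided by the root of F. Folds against a group at 0 use a floor of 3 pairs. Fits were tested on simulated counts. Alternatives were DESeq2 1.42.0, other scalings, no filter, fewer groups, the replicate block, single reads and libraries left out. Members, lists, and the rule for naming (both TIP3 genes and at most 8 called members each way per comparison, in full) were chosen with earlier results of these data known. What separates biological replicates is not stated in the labels, so p-values measure the spread between these samples. Replicate numbers were not taken to pair libraries, since not all same-numbered correlations exceeded 0.1. The treatment of overlapping genes in counting is not given in the sources used here.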

Additional observations from a re-analysis of the deposited data

Results flagged for a closer look

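The results below were taken up because the test of the difference in imbibition response between genotypes called them (edgeR's quasi-likelihood test, adjusted p under 0.05). Both sets use the same wild type libraries. Values are log2 differences in response, genotype minus wild type, and a positive value beside a fall means a smaller fall. For mpk8 the response was higher for TIP3-1 (1.01), TIP3-2 (0.998), PIP2-5 (0.64), PIP1-5 (0.63) and NIP1-2 (0.61). It was lower for PIP1-3 (-2.12), PIP2-2 (-1.98), NIP5-1 (-1.33), PIP2-1 (-1.18), SIP2-1 (-0.93), PIP1-4 (-0.88) and SIP1-1 (-0.63). The call of PIP2-5 was lost with each of 7 of the 12 libraries left out in turn (adjusted p = 0.051 to 0.18) and that of SIP2-1 with each of 8 (0.061 to 0.19). Those of PIP2-5 and PIP1-5 were also lost with library totals (adjusted p = 0.18 and 0.095). For the tcp14 label the response was higher for TIP3-2 (1.16), TIP3-1 (1.09), PIP1-5 (0.59) and NIP1-2 (0.52). It was lower for SIP1-2 (-3.55), PIP1-3 (-1.89), PIP2-1 (-1.67), PIP1-1 (-1.06), PIP2-7 (-1.04), NIP5-1 (-1.002), PIP1-4 (-0.75), SIP1-1 (-0.50) and PIP1-2 (-0.46). Of these, PIP1-1 and PIP2-1 lie in a stretch of chromosome 3 where dry tcp14-labelled and wild type libraries differ. PIP1-1 was higher than wild type in dry tcp14-labelled seeds and was not called between the imbibed groups. SIP1-2 had 1 pair in dry wild type, so the size of its value is uncertain, and its call was lost without dry wild type replicate 1 or 2 or dry tcp14-labelled replicate 2. The call of PIP2-7 was lost without dry tcp14-labelled replicate 2 (-0.68, adjusted p = 0.085), and that of PIP1-5 without imbibed tcp14-labelled replicate 3 (0.46, adjusted p = 0.054). With library totals PIP1-5 and NIP1-2 were not called for the tcp14 label (adjusted p = 0.31 and 0.11).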

How the results depend on the processing

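Over 132 pairs of a called member and a comparison, 1862 values under other settings gave the same call in 1790 cases, a lost call in 67 and a reversed sign in 5, and 105 of the 132 pairs kept their call under each setting run. The 5 reversals came with library totals in place of TMM: on imbibition of wild type, PIP2-2 at 0.0197, PIP1-4 at 0.88 and PIP1-5 at 0.56, and SIP1-1 at 0.26 in mpk8 and 0.30 in tcp14-labelled seeds. Of members called between dry mpk8 and wild type, 0 in the reported fit, there were 2 without the filter on low counts (PIP2-1 and PIP2-7), 3 in a fit of those groups alone (TIP3-2, PIP2-1 and PIP2-7), 1 by DESeq2 and 1 from single reads (PIP2-7 both times). Between dry tcp14-labelled and wild type seeds the 3 became 5 in a fit of those groups alone and 1 without the stretches of chromosomes 1 and 3, and the 7 between dry mpk8 and tcp14-labelled seeds became 3 without them; single reads and stretches were added after seeing the data, and the cause was not tested. Leaving out 1 library gave between 17 and 19 calls on imbibition of wild type, between 18 and 19 for mpk8 and between 16 and 18 for tcp14-labelled seeds. The same gave 0 to 0 and 19 to 20 for mpk8 against wild type, dry and imbibed, 2 to 3 and 17 to 20 for tcp14-labelled against wild type, 5 to 7 and 5 to 8 for mpk8 against tcp14-labelled seeds, and 10 to 13 and 11 to 14 for the differences in response. The 8 came without imbibed tcp14-labelled replicate 3, with 3 members higher in mpk8 where the full data gave 0, and some upper ends include TIP2-1, which then passed the filter. Same-numbered libraries correlated between -0.245 and 0.380, so not every pair was over the 0.1 set as the criterion and the labels tie no number to a batch; 10 of 18 libraries correlated best with one of their own number, a hint from the data and not from the design. The replicate block left the counts of calls at 18, 18 and 17 on imbibition. It changed 1 call, that of SIP2-1 in the test of the difference in imbibition response for mpk8 (adjusted p = 0.060). Depth limits the 14 genes not tested and every dry level of PIP2-8, NIP1-1, TIP1-1, TIP1-2 and SIP1-2.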

Other observations

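Close relatives within a subfamily did not always move alike. NIP1-1 and NIP1-2 share 85.15% of their coding bases, with a longest identical run of 33 bases. NIP1-1 had 0 pairs in all 9 dry libraries while NIP1-2 stood at 51.7 to 61.9 CPM there. After imbibition NIP1-1 was lower and NIP1-2 higher in both other genotypes than in wild type. PIP2-7 and PIP2-8, with 84.59% shared coding bases, moved the same way in each imbibition comparison and in both imbibed comparisons with wild type. PIP1-3 and PIP1-4, with 85.25%, went opposite ways on imbibition of mpk8 and tcp14-labelled seeds, where PIP1-3 rose by 1.16 and 1.39 and PIP1-4 had log2 fold changes of -1.09 and -0.96. TIP3-1 and TIP3-2, with 78.2%, fell together.

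The SD of the summed TIP3 level in imbibed tcp14-labelled seeds was 391 CPM per kilobase around a mean of 1813, beside 40.9 around 2003 in mpk8 and 99.0 around 927 in wild type.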
